A study of Mus musculus with 20 samples.

Results

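Genes of the primary cilium and of hedgehog signalling were compared between E2F4 null and wild type mouse embryonic fibroblasts. The members were a list of 42 genes chosen by symbol: 12 of intraflagellar transport, 7 cilium motors and ARL GTPases, 7 of the BBSome, 7 of the transition zone and polycystins, 6 of hedgehog signalling and 3 ciliogenesis transcription factors. Of the 42, 30 had a probe set annotated to them alone, among 12394 genes so annotated, and 22 passed the filter on low signal that 7436 genes passed. Ift52, Dync2li1, Arl6, Arl13b, Bbs1, Bbs4, Bbs5, Bbs7, Tctn1, Mks1, Tmem67 and Pkd2 were not analysed here.

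The cells were primary embryonic fibroblasts, connective tissue cells grown from mouse embryos at 13.5 days post coitum. They were of wild type genotype (10 cultures of 3 embryos) or E2F4 null (10 cultures of 5 embryos), 1 Affymetrix array each. The comparison asks how gene expression differs in fibroblasts that lack E2F4, a DNA-binding factor that represses cell cycle genes together with pocket proteins and is also known from multiciliated cells. No treatment, strain, sex, litter or passage is given in the labels, nor the part of the gene that was removed. The embryo was the replicate, so n counts embryos, and each embryo's signal is the mean of its 2 to 4 cultures.

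The primary cilium is a single immotile antenna that grows from the older centriole when a cell, such as a fibroblast, leaves the cell cycle, and it is taken down before division. Intraflagellar transport trains, moved outward by kinesin-II and back by dynein-2, build it. The BBSome carries membrane proteins in and out, and the transition zone at its base acts as a gate. In mammals hedgehog signalling runs through it: the receptor Ptch1 holds back Smo, and when a ligand binds Ptch1, Smo enters the cilium and relieves the block that Sufu puts on the Gli transcription factors.

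The arrays had been scaled to 1 common trimmed mean, 500.2, and their median signals lay between 135 and 146. Cultures of 1 embryo correlated at r = 0.988 to 0.994 across genes, those of different embryos at 0.948 to 0.991. All 12 fibroblast markers passed the filter. E2f4 signal was 209, 212 and 221 in the wild type embryos and 157, 167, 156, 155 and 196 in the null embryos. All 5 null embryos were lower than the lowest wild type embryo, but the difference of -0.35 (log2, SE 0.10) did not pass across all genes (limma adjusted p = 0.363), and a probe set outside the removed part would check nothing.

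Promoter sequence was examined for 35 of the 42 genes, those with an entry in the RefSeq promoter table (build GRCm38.p6, 250 bases before to 50 after the start). The letters of known binding elements were searched on both strands. An E2F site was taken as TTTCCCGC, TTTGGCGC, TTTCGCGC or TTTGCCGC. It was found in 2 members (5.71%), Arl3 and Ift27, against 4.07% of the 9888 array genes with a promoter entry. The X-box is the element that RFX factors bind at cilium genes. Its core, GTTGCC, was found in 15 members (42.9%), against 14.2% of array genes. A longer X-box consensus, which can overlap the core, was found in Bbs1, Ift57, Tctn1 and Tctn2 (11.4%), against 0.85% of array genes. The GLI site GACCACCCA, bound by the effectors of hedgehog signalling, matched no member and 0.192% of array genes. The CHR element (TTTGAA or TTCGAA), a site of cell cycle genes that is bound by the complex E2F4 belongs to, matched Gli2 and Ttc8 (5.71%), against 17.3% of array genes. The 35 members include genes without a probe set, such as Bbs1 and Tctn1, which are not among the array genes. Over all 27025 genes with a promoter entry the shares were 2.6% (E2F), 14.1% (X-box core), 0.796% (longer X-box), 0.289% (GLI) and 21.7% (CHR). All of these are letter matches in 1 window per gene, not measured binding.

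The 120 bases before the start are shown for the 3 tested genes with the smallest p between genotypes (Gli3, Ift20 and Arl3, all lower in the mean of null embryos), and for 4 genes of the cilium that carry the X-box letters or its core. Capitals mark the letters found: the E2F site in Arl3, whose first base is at -36 from the start, the long X-box in Ift57 at -87 and in Tctn2 at -62, and the core in Kif3a at -98, in Ift140 at -109 and a second time in Ift57 at -60. Gli3 and Ift20 have none of the searched letters in the stretch. The stretches are, in the order shown, chr13:15463603-15463722 on the plus strand, chr11:78536241-78536360 on the plus strand, chr19:46573183-46573302 on the minus strand, chr16:49699174-49699293 on the plus strand, chr5:124598629-124598748 on the plus strand, chr11:53567249-53567368 on the plus strand and chr17:25015966-25016085 on the plus strand.
Gli3: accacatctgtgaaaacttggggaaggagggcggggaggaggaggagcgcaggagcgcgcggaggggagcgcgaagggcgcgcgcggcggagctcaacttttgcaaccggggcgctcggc
Ift20: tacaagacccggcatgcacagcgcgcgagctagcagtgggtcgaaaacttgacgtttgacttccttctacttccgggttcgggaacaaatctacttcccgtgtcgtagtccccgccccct
Arl3: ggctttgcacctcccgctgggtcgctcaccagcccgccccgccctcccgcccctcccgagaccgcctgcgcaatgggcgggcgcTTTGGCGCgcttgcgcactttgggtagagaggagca
Ift57: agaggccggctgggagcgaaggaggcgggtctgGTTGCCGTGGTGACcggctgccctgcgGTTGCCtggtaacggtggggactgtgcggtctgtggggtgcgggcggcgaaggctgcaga
Tctn2: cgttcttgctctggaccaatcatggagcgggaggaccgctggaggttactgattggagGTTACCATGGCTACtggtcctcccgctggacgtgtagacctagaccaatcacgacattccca
Kif3a: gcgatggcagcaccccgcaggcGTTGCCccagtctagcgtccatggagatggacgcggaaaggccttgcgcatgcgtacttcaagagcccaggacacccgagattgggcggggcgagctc
Ift140: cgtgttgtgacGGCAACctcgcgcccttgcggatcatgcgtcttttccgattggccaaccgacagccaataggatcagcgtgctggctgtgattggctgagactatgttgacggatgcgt

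No member passed the test between genotypes at a limma adjusted p under 0.05, and 1 of 7436 genes did (0.0134%). Of the 22 tested members, 11 differences lay above 0 and 11 below, with a median of 0.01 on the log2(signal + 16) scale, against 0.00 over all genes tested. Those with an unadjusted p under 0.05 were Gli3 and Ift20, 2 of 22, against 8.73% of all genes. Null embryos lay wholly below wild type embryos for 1 member, Gli3, against 3.71% of all genes, and wholly above for 0 members, against 2.95%. The 95% interval of the difference included 0 for 20 of the 22. The median absolute difference was 0.09 for the members and 0.09 for all genes.

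**Figure D1:**
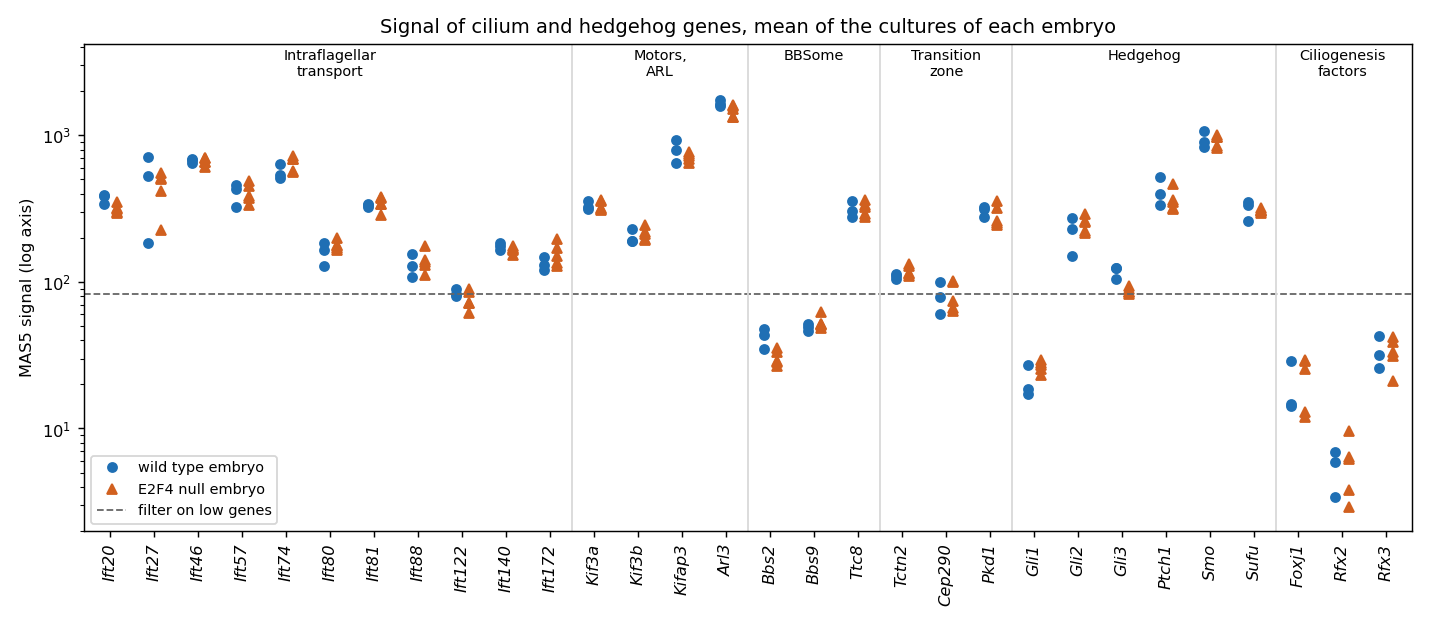
Signal of the 30 genes with a probe set, on a log axis, by role from left to right; each circle is a wild type embryo (n = 3), each triangle an E2F4 null embryo (n = 5), and the dashed line is the filter at a signal of 83.2. The embryos of both genotypes lie over each other except for Gli3, whose null embryos (82.3 to 94.5) all lie below the wild type embryos (104 to 124); 8 genes lie below the filter by their mean.

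Intraflagellar transport trains have a core of B proteins for outward travel and a smaller A complex for the return. Ift20, a B protein that also sits at the Golgi and carries membrane cargo towards the cilium, had signals of 393, 388 and 338 in the wild type embryos and 352, 321, 312, 295 and 299.6 in the null embryos. Of the null embryos, 4 of 5 lay below all wild type embryos, and null embryo 1 fell between the lowest and the other wild type embryos. The means were 373 ± 30.2 (SD, n = 3) and 316 ± 22.7 (n = 5), a difference of -0.23 (log2, SE 0.09, 95% interval -0.42 to -0.04). This did not pass over all genes (limma unadjusted p = 0.0255, adjusted p = 0.463), and 13.5% of all genes had a difference at least as large in either direction.

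Ift74, a B protein that together with Ift81 binds tubulin as train cargo, had signals of 534, 513 and 636 in the wild type embryos and 572, 560.3, 685, 725 and 689 in the null embryos. The groups overlapped, with 3 of 5 null embryos above all wild type embryos. The difference was 0.20 (log2, SE 0.11, 95% interval -0.05 to 0.45, limma adjusted p = 0.670). Its partner Ift81 averaged 332 ± 6.52 and 345 ± 36.9, a difference of 0.04 (adjusted p = 0.915).

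Ift172, a large B protein that helps trains turn round at the cilium tip, had signals of 147, 121 and 131 in the wild type embryos and 128, 135, 169.8, 149.5 and 195 in the null embryos. The highest value, in null embryo 5, lay above all others, while null embryo 1 lay among the wild type embryos. The difference was 0.19 (log2, 95% interval -0.13 to 0.51, limma adjusted p = 0.730). Ift80, whose loss narrows the chest in a human skeletal ciliopathy, averaged 159 ± 28.6 and 178 ± 12.9, a difference of 0.16 (adjusted p = 0.741).

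The remaining tested transport genes had differences between -0.06 and 0.09. Ift46, a B protein, gave the tightest values: 670.4 ± 22.6 in wild type and 665 ± 35.8 in null embryos, a difference of -0.01 with a 95% interval of -0.16 to 0.14. Ift88, the protein whose mutation in mice shortens cilia and causes polycystic kidneys, averaged 130.3 ± 23.9 and 139.5 ± 23.1 (0.09, limma adjusted p = 0.889). Ift57, another B protein, averaged 404 ± 69.0 and 408 ± 61.7 (0.02, adjusted p = 0.982). Ift140, of the A complex, averaged 174 ± 10.3 and 167 ± 8.15 (-0.06, adjusted p = 0.885). Ift27, a small GTPase of the train needed to bring the BBSome out of the cilium, differed by 0.03 with the widest interval of the members, -0.92 to 0.98, and its embryos had the largest range of the members, 1.86 (log2). Ift122, of the A complex, lay below the filter, at 84.2 ± 4.50 and 75.9 ± 11.2. Over the 10 tested transport genes, 7 differences were above 0 and 3 below, with a median of 0.04.

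Kinesin-II, the outward motor, consists of Kif3a, Kif3b and the accessory subunit Kifap3. Kif3a had the smallest difference of the members, 0.00 (95% interval -0.19 to 0.19), with means of 332 ± 22.5 and 332 ± 24.9. Its other probe set gave -0.09. Kif3b averaged 203 ± 22.2 and 213 ± 20.7 (0.07, limma adjusted p = 0.885), and its other probe sets gave 0.08, 0.06 and -0.19. Kifap3 had signals of 792, 651 and 925 in the wild type embryos, which spanned those of the null embryos, 723, 651, 693, 746 and 767 (-0.12, adjusted p = 0.780).

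Arl3, a small GTPase that releases lipid-modified cargo inside the cilium, had signals of 1641, 1595 and 1729.5 in the wild type embryos and 1343, 1331, 1504, 1577 and 1605 in the null embryos. Of the null embryos, 4 of 5 lay below all wild type embryos, and null embryo 5 lay between wild type embryos 1 and 2. The means were 1655 ± 68.2 (n = 3) and 1472 ± 129 (n = 5), a difference of -0.17 (log2, SE 0.08, 95% interval -0.35 to 0.01). It did not pass (limma unadjusted p = 0.0619, adjusted p = 0.595). Its promoter holds the E2F letters printed above, 1 of the 2 members with them. The other, Ift27, differed by 0.03.

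The BBSome was measured above the filter only through Ttc8, a subunit also known as BBS8, at 314 ± 41.0 and 318 ± 34.4 (0.02, limma adjusted p = 0.976). Bbs2, another subunit, lay below the filter, with signals of 43.2, 47.9 and 34.7 in the wild type embryos and 26.8, 33.2, 28.3, 28.7 and 35.5 in the null embryos. Of the null embryos, 4 of 5 lay below all wild type embryos, at a signal where expression and background cannot be told apart. With no filter its difference was -0.33 (95% interval -0.64 to -0.02, limma adjusted p = 0.677). Bbs9 averaged 49.0 ± 2.97 and 52.9 ± 5.39, also below the filter.

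At the transition zone, Tctn2, a membrane protein of the gate, averaged 109 ± 4.87 and 119.8 ± 10.4 (0.12, limma adjusted p = 0.766). Cep290, which links the microtubules of the zone to its membrane, lay below the filter at 79.8 ± 20.1 and 81.0 ± 18.3. Pkd1, which encodes polycystin-1, a membrane protein of kidney cilia that is mutated in polycystic kidney disease, had signals of 322, 312 and 278 in the wild type embryos and 317, 356, 253, 262 and 244 in the null embryos. The groups overlapped, with null embryo 2 highest and null embryos 3, 4 and 5 lowest (-0.09, adjusted p = 0.880).

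In the hedgehog pathway, Gli3 had the largest difference of the tested members. Gli3 is the Gli factor that is cut at the cilium into the pathway's main repressor when no ligand is present. Its signals were 124, 104 and 124 in the wild type embryos and 89.0, 82.3, 85.2, 84.9 and 94.5 in the null embryos. The groups did not overlap, with all 5 null embryos lower. The means were 118 ± 11.8 (SD, n = 3) and 87.2 ± 4.76 (n = 5), a difference of -0.37 (log2, SE 0.10, 95% interval -0.60 to -0.14). It ranked 109th of the 7436 genes by p and did not pass over all genes (limma unadjusted p = 0.00545, adjusted p = 0.363), and 3.90% of all genes had a difference at least as large in either direction.

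The level of Gli3 was close to the filter of 83.2 and rested on 1 probe set. Single cultures of the genotypes overlapped: the 10 wild type cultures ranged from 87.6 to 158 with a median of 119, and the 10 null cultures from 62.7 to 115 with a median of 83.7. The SD between cultures of 1 embryo was 0.26 (log2), above the SD of the embryo means, 0.13 in wild type and 0.06 in null. With cultures counted as independent samples, a count that ignores their shared embryo, the difference of -0.38 passed (limma adjusted p = 0.0302). In whole cultures, fewer cells that make a transcript and less of it per cell cannot be told apart.

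The other pathway members did not separate by genotype. Gli2, the main activator of the Gli factors, had signals of 274, 150.1 and 229.9 in the wild type embryos and 217, 221, 291, 258 and 261 in the null embryos. Wild type embryo 2 lay below all others, and the rest overlapped. The difference was 0.21 (log2, SE 0.18, 95% interval -0.19 to 0.62, limma adjusted p = 0.760), and leaving out 1 embryo gave -0.01 (without wild type embryo 2) to 0.39 (without wild type embryo 1). Its other probe set gave 0.25.

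Ptch1, the receptor, whose gene is itself a target of the pathway and a common measure of its activity, had signals of 397, 336 and 523 in the wild type embryos and 362, 312, 349.6, 321 and 463 in the null embryos. The highest value of each genotype, in wild type embryo 3 and null embryo 5, stood apart from the rest of its group. The difference was -0.19 (log2, SE 0.16, 95% interval -0.55 to 0.17, limma adjusted p = 0.765), and leaving out 1 embryo gave -0.33 (without wild type embryo 2) to -0.03 (without wild type embryo 3), with -0.28 without null embryo 5. Gli1, the other common measure of pathway activity, lay below the filter, at 21.0 ± 5.50 and 26.6 ± 2.31.

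Smo, the membrane protein that carries the signal onward, averaged 936 ± 127 and 924 ± 83.8 (-0.02, limma adjusted p = 0.978). Sufu, the inhibitor that holds Gli proteins in the cytoplasm, averaged 316 ± 49.8 and 306 ± 8.82 (-0.03, adjusted p = 0.946), and its other probe set gave 0.12. Over the 5 tested pathway genes 1 difference lay above 0 and 4 below, with a median of -0.03.

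The ciliogenesis transcription factors were all below the filter. Foxj1, the master factor of motile cilia, averaged 19.2 ± 8.33 and 21.7 ± 8.60. Rfx3, a factor that binds the X-box, averaged 33.6 ± 8.66 and 33.3 ± 8.06, and its relative Rfx2 averaged 5.39 ± 1.81 and 5.78 ± 2.63. Of the 20 listed genes of the motile cilium (dynein arms, radial spokes and tektins), 7 had a probe set and 0 passed the filter, with a summed signal of 116 to 171 per embryo. Of the 10 listed genes of the multiciliated cell programme, in which E2F4 has a known role, 4 had a probe set and 0 passed.

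**Figure D2:**
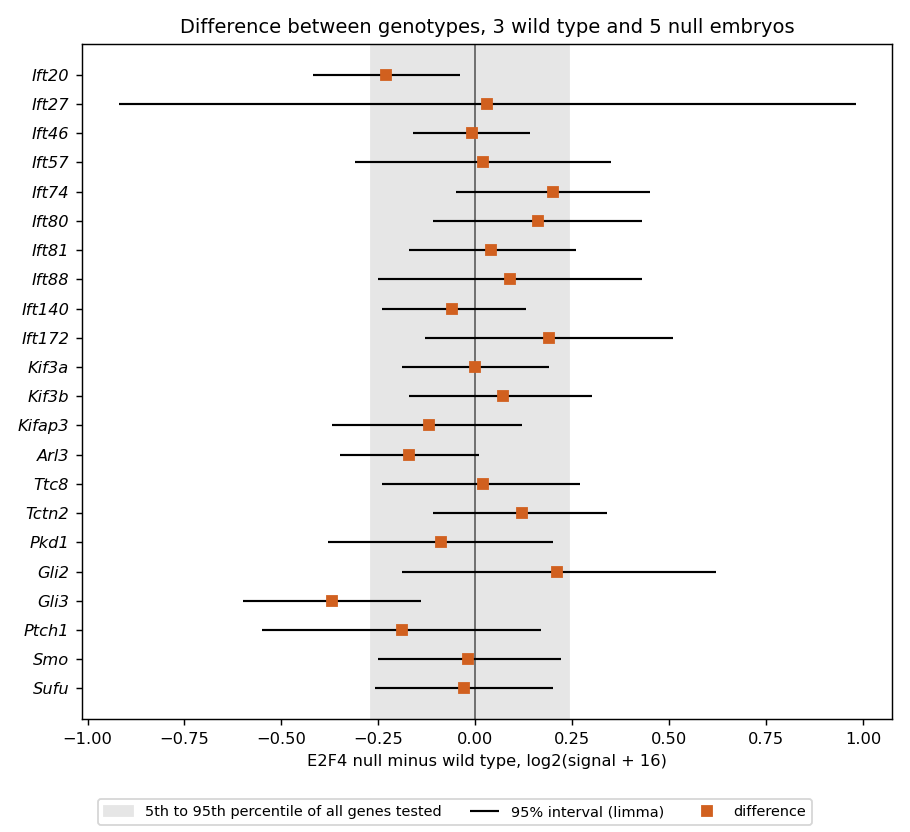
Difference between E2F4 null (n = 5) and wild type (n = 3) embryos in log2(signal + 16) for the 22 tested genes, grouped by role; squares are the differences, lines their 95% limma intervals, and the grey band the 5th to 95th percentile of all 7436 genes tested (-0.27 to 0.24). Gli3, at -0.37, is the 1 gene outside the band, and the intervals of Gli3 and Ift20 leave out 0.

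Several members differed between embryos of 1 genotype. In an F test between embryos over their cultures, 10 of the 22 members were called between wild type embryos (Ift27, Ift57, Ift74, Ift80, Kifap3, Ttc8, Gli2, Ptch1, Smo and Sufu), against 50.1% of all genes. Between null embryos 5 were called (Ift27, Ift57, Ift74, Pkd1 and Ptch1), against 22.9% of all genes. Both shares are near those of all genes, as was the median range over the 8 embryos, 0.46 (log2) for the members and 0.43 for all genes. The spread between cultures of 1 embryo had a median SD of 0.14 for the members and 0.12 for all genes. These F tests take cultures of 1 embryo as replicates and say nothing of the genotype.

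Ift27 varied most. Its signals were 528, 185 and 715 in the wild type embryos and 512, 225, 549.9, 501 and 417 in the null embryos. Wild type embryo 2 and null embryo 2 lay far below the others, and their genotypes differ. This range was reached by 1.25% of all genes, and the embryos differed within the wild type (limma adjusted p = 2.2e-07) and within the null (adjusted p = 0.000772). A second probe set of Ift27 gave 256, 122 and 283 in the wild type embryos and 221, 111, 279, 178 and 217 in the null embryos, with the same embryos lowest. The last probe set gave 101, 80.2 and 114, and 95.9, 98.2, 119.5, 96.9 and 123, and there null embryo 2 was not the lowest. Without wild type embryo 2 the difference between genotypes was -0.52 (adjusted p = 0.583), without wild type embryo 3 it was 0.41, and without null embryo 2 it was 0.24.

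Gli2 differed between wild type embryos (limma adjusted p = 0.000885) but was not called between null embryos (adjusted p = 0.353), and the difference between these spreads was not tested. Ptch1 differed between embryos of both genotypes (adjusted p = 0.000147 and 0.0183). Smo, with 899, 832 and 1078 in the wild type embryos, and Sufu, with 337, 259.7 and 353, were both highest in wild type embryo 3 and lowest in wild type embryo 2. Ptch1, Kifap3, Ift27, Ift74, Ift80 and Ttc8 had the same highest and lowest wild type embryo. The other probe sets of Smo (598, 414 and 654) and Kifap3 (353, 285 and 384) gave that order too. The second probe set of Ift80 did not: at 128, 168 and 154 it was highest in wild type embryo 2, against 166, 128 and 184 for the one used. Nor did the dim other probe sets of Sufu and Ptch1, with mean signals of 46.1 and 12.9. Ift57, with 456, 430.0 and 326, was lowest in wild type embryo 3.

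Wild type embryo 2 was the lowest of all 8 embryos for 9 of the 22 members (40.9%), against 24.0% of all genes, and the highest for 0, against 22.3%. Wild type embryo 3 was the highest for 7 (31.8%), against 12.6% of all genes. Null embryo 5 was the highest for 5 (22.7%), against 12.3%. The hedgehog members averaged -0.22 (log2) from the mean of both genotypes in wild type embryo 2 and 0.21 in wild type embryo 3, and the transport members -0.15 and 0.06. The transport means rest on Ift27 (-1.11 and 0.75): the other 9 tested transport genes averaged -0.04 and -0.02.

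Markers of the cell cycle and of several cell types moved with the same embryos. The 12 tested of 14 genes of cycling cells averaged 0.01, -0.47 and 0.27 from that mean in the wild type embryos and -0.15, -0.14, 0.14, 0.23 and 0.23 in the null embryos. Their summed signal was 21929 to 33619 in the wild type and 26328 to 32557 in the null embryos, and all 12 were called between wild type embryos. Skeletal muscle markers ran the other way. Their summed signal, over the 7 measured of 7 listed, was 915, 4325 and 563 in the wild type embryos and 1850, 3645, 536, 481 and 462 in the null embryos. The muscle actin Acta1 gave 211 to 3869.5 of it, and the defining factors Myod1 and Myog averaged 19.4 and 14.2, below the filter. Epithelial markers, 2 tested of 8 (Krt18 and Krt19), were also high in wild type embryo 2 and in null embryos 1 and 2. Their summed signal was 342, 605 and 338 in the wild type embryos and 782, 670, 440, 483 and 513 in the null embryos, and the defining markers Epcam and Cdh1 averaged 6.1 and 11.4, below the filter. Endothelial markers, 2 tested of 7 (Flt1 and Eng), had the same 3 embryos highest in their summed signal. It was 638, 791 and 442 in the wild type and 734, 743, 521, 541 and 461 in the null embryos. Neither tested marker had that order alone. Flt1 was 410.4 in wild type embryo 1 and 357 in null embryo 2, and Eng was 147 in null embryo 1 and 206 in null embryo 3. The defining markers Pecam1 and Cdh5 averaged 7.4 and 18.8. The 12 fibroblast markers ran with the cycling genes only in their mean deviation. It was 0.18, -0.27 and 0.21 in the wild type embryos and -0.26, -0.14, 0.02, 0.13 and 0.06 in the null embryos. Col1a1, Col1a2, Vim and Fn1, chosen after their values were seen, were instead highest in wild type embryo 2 and null embryos 1 and 2. The summed signal of the 12 was 105014, 107298 and 106194 in the wild type embryos. In the null embryos it was 103105, 107671, 97017, 102945 and 95197. Macrophage markers, 9 tested of 10, followed another order, with a summed signal of 1917 to 3022 in the wild type and 1592 to 5308 in the null embryos, highest in null embryo 4. Lyz2 gave 555 to 2509 of it. The 9 differences between genotypes all lay above 0, with a median of 0.34, and none was called. The part of these markers in the members' values was not tested.

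**Figure D3:**
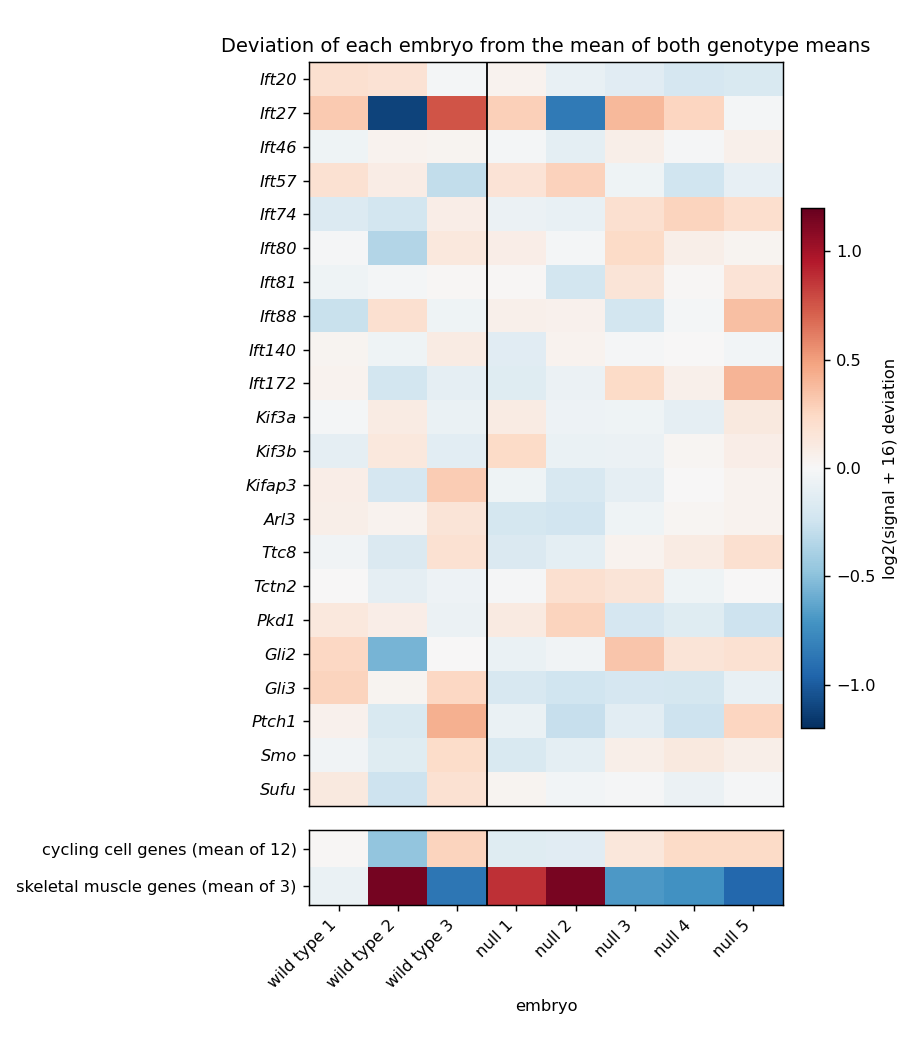
Heat map of the 22 tested genes (rows) over the 3 wild type and 5 E2F4 null embryos (columns), coloured by the deviation in log2(signal + 16) from the mean of both genotype means; the lower strip gives the mean deviation of 12 cycling cell genes and 3 skeletal muscle genes. Ift27 stands out low in wild type embryo 2 (-1.11) and null embryo 2 (-0.85); the cycling genes are lowest in wild type embryo 2 (-0.47), where the muscle genes reach 1.15.

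**Figure D4:**
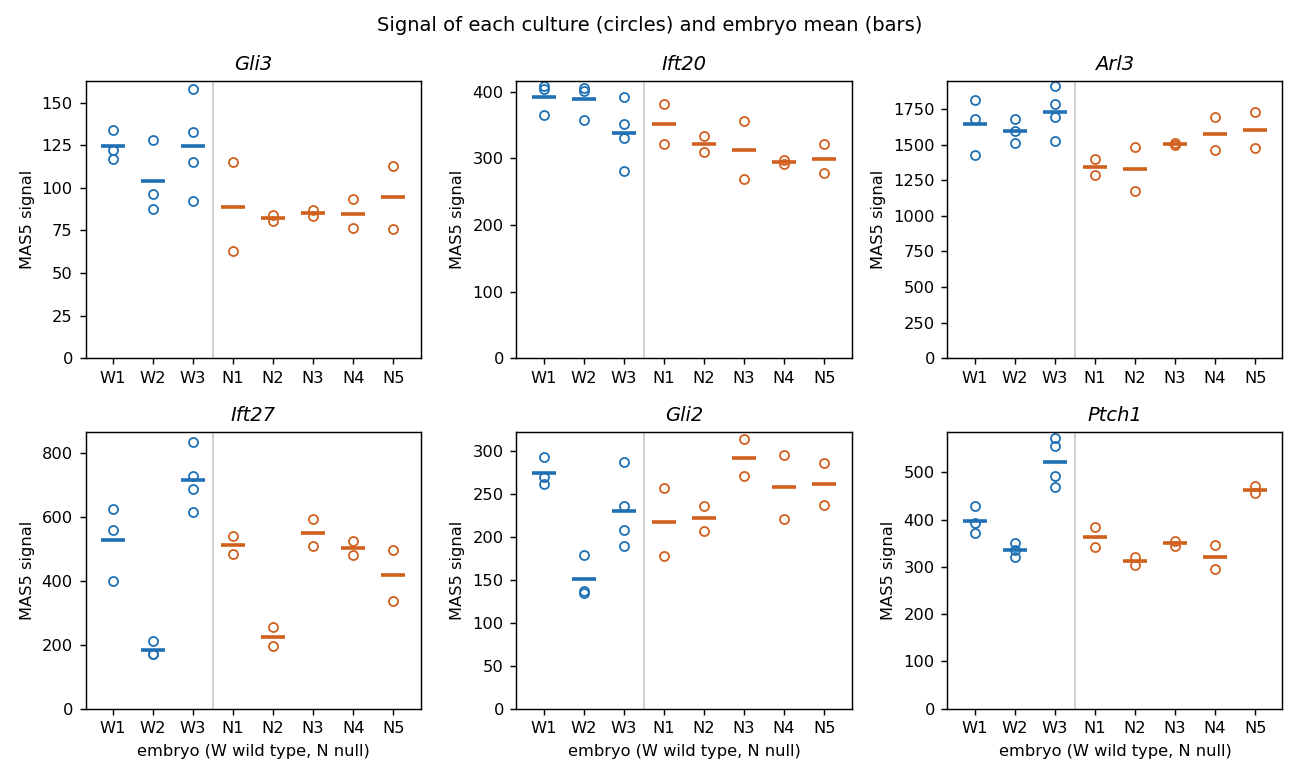
Signal of every culture (circles) and the mean of each embryo (bars) for 6 genes, with wild type embryos W1 to W3 left and E2F4 null embryos N1 to N5 right of the line, on linear axes that start at 0. Ift27 embryo means run from 185 to 715, with every culture of W2 and N2 below those of the other embryos; for Gli3 the null embryo means (82.3 to 94.5) lie below those of the wild type (104 to 124) while single cultures overlap.

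The rest of the pathway was read from lists of other genes, none of which held a called gene. Of 23 other hedgehog genes, 17 had a probe set and 11 passed the filter, 6 above 0 and 5 below with a median of 0.02. The lowest p were those of Fkbp8, an antagonist of the pathway in the neural tube (-0.18, limma adjusted p = 0.679), and Spop, an adaptor that marks Gli proteins for destruction (-0.14, adjusted p = 0.707). The ligands Shh, Ihh and Dhh, the ligand trap Hhip and the coreceptor Cdon were below the filter.

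The coreceptor Gas1 was picked out after its values were seen. It had signals of 2345, 324 and 3438 in the wild type embryos and 498, 425, 2903, 3647 and 3329 in the null embryos. Wild type embryo 2 and null embryos 1 and 2 lay far below the other embryos of both genotypes, and they are also the 3 embryos with the highest summed signal of muscle, epithelial and endothelial markers. The fibroblast markers Pdgfra (191, 197 and 339) and Dcn (99.3, 141 and 91.3), also chosen after their values were seen, were lowest in the same 3 embryos. Other fibroblast markers went the other way, with Col1a1, Col1a2, Vim and Fn1 highest in those embryos. The part of these markers in the Gas1 values was not tested. The embryos differed within the wild type (limma adjusted p = 2.5e-10) and within the null (adjusted p = 5.3e-08), and the genotypes by 0.12 with an interval of -2.07 to 2.31. Ptch1 in those embryos was 336, 362 and 312, but it did not follow the Gas1 order, with 349.6 and 321 in null embryos 3 and 4. Smo was 832, 819 and 849, the 3 lowest Smo values of the 8 embryos. By the probe set used, Gli2, at 150.1, 217 and 221, was lowest in those embryos as well. Its other probe set, at 68.7, 99.3 and 109, was lowest in wild type embryo 2 but highest in null embryos 1 and 2. Gli3, at 104, 89.0 and 82.3, was within the values of the other embryos except in null embryo 2.

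Of 12 hedgehog targets outside the pathway, 4 passed the filter, with a median of -0.03. Foxd1, a forkhead factor of mesenchyme, had signals of 157, 174 and 105 in the wild type embryos and 283, 456, 139.5, 156 and 159.6 in the null embryos, where null embryos 1 and 2 lay above the rest (0.55, limma adjusted p = 0.703). Foxc2 differed by -0.21 (adjusted p = 0.725).

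Of 9 other BBSome and chaperonin genes 7 were tested, 2 above 0 and 5 below with a median of -0.03. Rab23, a GTPase that restrains hedgehog signalling, had signals of 820.0, 808 and 887 in the wild type embryos and 762, 679, 745, 739.8 and 774 in the null embryos. All 5 null embryos were lower than the lowest wild type embryo, as for 3.71% of all genes, and the difference of -0.18 (log2, SE 0.07) did not pass (limma unadjusted p = 0.0261, adjusted p = 0.466). Rab3ip, which activates the GTPase that delivers ciliary membrane, differed by 0.22 (adjusted p = 0.751).

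Of 15 other transition zone genes 7 were tested, with a median of 0.11. Rpgrip1, a scaffold of the photoreceptor connecting cilium, had signals of 94.2, 996 and 1226 in the wild type embryos and 2272, 2218, 2579, 1592 and 2627 in the null embryos. The null embryos all lay above the wild type embryos, as for 2.95% of all genes, but wild type embryo 1 lay far below the other wild type embryos. These signals are of the brightest of its 4 probe sets only. The difference was 2.11 (log2, SE 0.68, limma unadjusted p = 0.0128, adjusted p = 0.418), and wild type embryos differed among themselves (adjusted p = 2.8e-13). Invs, an inner cilium protein, averaged 205 ± 7.04 and 169 ± 26.6 (-0.27, limma adjusted p = 0.608). Its null embryos all lay below the wild type embryos, as for 3.71% of all genes.

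Of 18 other transport and dynein-2 genes 6 were tested, between -0.06 (Dynlrb1, a dynein light chain, limma adjusted p = 0.804) and 0.11 (Cluap1, a B protein, adjusted p = 0.862). Of 21 basal body and centriole genes 10 were tested, 9 above 0 and 1 below with a median of 0.08. The centrin Cetn2 differed by 0.11 (adjusted p = 0.703) and Sass6, the protein of the centriole cartwheel, by 0.16 (adjusted p = 0.711). Of 9 genes of cilium disassembly 5 were tested, 4 above 0 and 1 below with a median of 0.12. The kinase Aurka, which starts the resorption of the cilium, differed by 0.11 (adjusted p = 0.750), and Hdac6, which deacetylates its tubulin, by -0.18 (adjusted p = 0.787). Cycling cell genes, 10 above 0 and 2 below of 12, had a median of 0.13, and the smallest p were those of Aurkb at 0.29 (adjusted p = 0.743) and Cdc20 at 0.20 (adjusted p = 0.751). The basal body and disassembly lists were, with -0.29 and -0.32, also lowest in wild type embryo 2. The kinase Plk1 is in both the disassembly and the cycling cell list, so these lists are not separate.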

How the data were processed

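Total RNA from 20 cultures of mouse embryonic fibroblasts was measured on Affymetrix arrays. Each deposited value is the intensity of 1 probe set on 1 array, not log-transformed, and MAS5 is the tool named by the submitters' processing notes, without a version. The deposited scaling (a 2% trimmed mean of 500.2 everywhere) was kept, and it hides a change shared by all genes. Of 22690 probe sets, 64 were controls, 20393 had 1 gene symbol in the platform annotation and 691 several. RefSeq GRCm38.p6 held 20364 of the 20393. The number of embryos limits the precision.

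Signals were taken as log2(signal + 16), which understates the change of low genes, and the mean over its cultures stood for an embryo. The brightest probe set stood for a gene. The filter kept genes whose mean signal reached the 40th percentile, 83.2, because no detection calls were used. The genotype comparison was fitted to embryo means of all 7436 genes in limma 3.58.1 (R 4.3.3; lmFit and trended eBayes, null minus wild type, two-sided). A gene was called where its p, adjusted by Benjamini-Hochberg, was under 0.05. Embryos within a genotype were compared by limma's F test over cultures. Both tests were tested on simulated data. The p-values measure the spread between these samples. Titles hold 2 numbers, read as embryo and culture.

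The members and lists were chosen with earlier results of these data known. Every member could be named. Of each list of other genes, called genes or else the 2 with the smallest p were named, and E2f4. Any other gene was chosen after its values were seen. Alternatives changed the pseudocount, filter, scaling, probe sets, variance model and sample structure, and left out each embryo.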

Additional observations from a re-analysis of the deposited data

Results flagged for a closer look

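Bbs9, a subunit of the BBSome, had 1 null embryo apart from the others. Null embryo 2 had a signal of 62.2, and the other null embryos lay between 48.3 and 51.8. On the log2(signal + 16) scale the gap to the nearest of them was 0.72 of the range of the 5 embryos, past the Dixon critical value of 0.71 for 5 samples. It was the 1 gene of 30 examined whose null embryos met that rule, and chance alone marks some such groups. Bbs9 lies below the filter on low signal. Its single cultures overlapped, with 59.2 and 65.2 in null embryo 2 and 37.3 and 65.6 in null embryo 1.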

How the results depend on the processing

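Of the members, Gli3 passed the threshold under 1 alternative, cultures as independent samples, which gave 1 called member (main 0) and counts cultures of 1 embryo as separate; over all its alternatives Gli3 kept its direction (-0.45 to -0.26, limma adjusted p from 0.0302 to 0.815). Ift20 (-0.30 to -0.18) and Arl3 (-0.25 to -0.13) kept their direction too. The sign of an uncalled difference turned under some alternatives for Ift27 (8 of 21), Kif3a (8), Ift57 (5), Sufu (5), Ttc8 (5), Ift46 (4), Smo (3), Gli2 (1), Ift88 (1) and Pkd1 (1). With a filter at the 60th percentile, 6 members in place of 10 were called between wild type embryos, since fewer members were tested.

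The number of all genes called between genotypes (main 1) was 0 with cultures 1 and 2 only, 80 with the embryo as a random block, 543 with cultures as independent samples and 0 to 11 when each embryo was left out in turn, with 11 without wild type embryo 2 and 2 without null embryo 2; the cause was not tested. Between wild type embryos, cultures 1 and 2 only gave 2187 called genes in place of 3722, with fewer cultures. The labels do not say that embryo or culture numbers pair the samples. Deviations of same-numbered embryos correlated at 0.09, 0.64 and 0.42, and some of differently numbered embryos as highly (wild type 3 with null 5 at 0.64, with null 4 at 0.49), so the numbers were not taken as pairs. With the embryo number as a replicate block 0 genes were called, and with the culture number as a replicate block 38, and neither called a member. Signals near or below 83.2, such as those of Gli3, Bbs2 and Gli1, limit what can be read from them.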
